A study of Mus musculus with 20 samples.

Results

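The growth hormone, STAT5 and IGF axis was followed through 10 genes of the liver: Cish, Socs2, Igf1, Igfals, Ghr, Stat5a, Stat5b, Bcl6, Igfbp1 and Igfbp2. They were chosen by measured values, around the large fall of Cish and Igfbp2 in the livers that received both PCB treatments. The deposited table holds 21780 genes, and the 10 were found in it by Ensembl ID through the GENCODE M21 annotation. Since the comparison of the combined exposure with control chose them, their values in the combined group are given as a description with no test.

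The RNA-seq libraries came from the livers of 20 male C57BL/6 mice, and each of the 4 groups had 5. All mice, controls included, ate a high-fat diet (HFD) with 42% of calories from fat for 12 weeks from the age of 8 weeks. At 10 weeks of age each received a single oral gavage. HFD control mice received the corn oil vehicle, and HFD + Aroclor mice received Aroclor, a commercial PCB mixture that is mostly non-dioxin-like, at 20 mg/kg. HFD + PCB 126 mice received PCB 126, a dioxin-like congener, at 20 µg/kg, and HFD + Aroclor + PCB 126 mice received both at these doses. By the methods the livers were taken 10 weeks after gavage and after a fast of 6 h, whereas the sample labels give 12 weeks. There was no group on a normal diet, and female mice were not used, so neither diet nor sex can be compared here.

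Growth hormone from the pituitary binds its receptor on hepatocytes and activates the kinase JAK2, which phosphorylates the transcription factors STAT5A and STAT5B. STAT5 then switches on Igf1, Igfals and the feedback inhibitors Cish and Socs2, and in mouse liver it lowers the repressor Bcl6. The hormone is released in pulses in male rodents and more evenly in females, and this pattern sets much of the sex difference of the liver. The liver is also the main source of circulating IGF-I, which travels bound to binding proteins such as those encoded by Igfbp1 and Igfbp2.

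Total counts per library ranged from 21836506 to 36854887. Of the 21780 genes, 15522 had at least 10 counts in total and were tested, all 10 of the axis among them. Levels are CPM, the reads of a gene scaled to a fixed library size, after TMM scaling, and fold changes (log2FC) come from edgeR. The libraries differed in GC composition. The slope of a gene's relative level over the GC content of its transcripts lay between 0.0040 and 0.50 log2 units per 10 GC points in HFD control, −0.11 and 0.15 with Aroclor, −0.10 and 0.40 with PCB 126, and −0.67 and −0.13 with the combined exposure. All 5 combined libraries were below all 5 controls, so library composition and combined exposure cannot be told apart by design, and values after a correction for GC content are given beside the results.

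Compared per base of transcript, the genes spanned a wide range of levels. The mean over the 20 livers was 172 FPKM for Igfbp1, 159 for Igfbp2, 73.3 for Ghr and 55.6 for Igf1. Igfals followed at 20.3 FPKM, Stat5b at 6.69, Bcl6 at 5.2, Stat5a at 2.14, Socs2 at 1.85 and Cish at 1.84. The 4 secreted proteins and the receptor thus had the most transcripts per length, and the inhibitors Socs2 and Cish the fewest.

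Cish (ENSMUSG00000032578, chr9:107296026-107302784, plus strand, GRCm38) encodes CIS, an inhibitor that STAT5 induces and that binds the receptor in return. In HFD control its level was 32.8, 8.84, 6.22, 46.7 and 13.3 CPM in replicates 1 to 5. With Aroclor it was 1.83, 3.00, 39.1, 2.29 and 4.40 CPM, and with PCB 126 it was 7.90, 11.1, 9.93, 30.9 and 3.27 CPM. In 4 of the 5 Aroclor mice Cish was below every control, while Aroclor replicate 3 was above 4 of the 5 controls. With the combined exposure the level was 3.65, 4.09, 1.504, 1.491 and 4.44 CPM, and all 5 mice were below all 5 controls. The group means were 21.6 ± 17.5 CPM in control, 10.1 ± 16.2 with Aroclor, 12.6 ± 10.6 with PCB 126 and 3.04 ± 1.43 with both (SD, n = 5). In bulk liver, fewer cells of a type and less RNA per cell cannot be told apart, here or in the results that follow. Neighbouring groups in the order of these means overlapped in range, for Cish as for each of the other 9 genes.

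Socs2 (ENSMUSG00000020027, chr10:95385362-95417180, minus strand) encodes the other STAT5-induced inhibitor of the set, the one whose loss makes mice grow large. Its control levels were 18, 8.84, 10.6, 71.5 and 24.4 CPM. The Aroclor levels were 4.09, 8.72, 27.7, 5.30 and 13.01 CPM, those with PCB 126 were 6.11, 9.70, 15.7, 39.3 and 18.01 CPM, and those with both were 23.7, 15.0, 5.25, 12.7 and 15.1 CPM. Unlike Cish, Socs2 overlapped between combined and control mice, and control replicate 4 stood far above the other controls.

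Ghr (ENSMUSG00000055737, chr15:3317760-3583492, minus strand) encodes the growth hormone receptor. Control livers had 458, 494, 631, 490 and 594 CPM of it, and Aroclor livers 775, 600, 525, 657 and 616 CPM. PCB 126 livers had 760, 650, 540, 615 and 712 CPM, and combined mice had 817, 948, 691, 811 and 885 CPM. Every combined liver was above every control liver, and the means were 533 ± 74.6 CPM in control and 830 ± 95.8 CPM with both (SD, n = 5).

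The STAT5 transcription factors overlapped between all groups. Stat5a (ENSMUSG00000004043, chr11:100859351-100885169, plus strand) ranged from 8.82 to 20.7 CPM over the 20 livers. Stat5b (ENSMUSG00000020919, chr11:100780731-100850724, minus strand), the form that dominates in male liver, ranged from 28.9 to 48.6 CPM. Neither gene separated any exposed group from control, and the mouse-to-mouse spread was wider for Stat5a than for Stat5b. The exons of Stat5a share 72 bases with Stat3 on the opposite strand, 1.01% of its exon length, and whether reads were counted by strand is not given in the sources used here.

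Among the secreted proteins, Igf1 (ENSMUSG00000020053, chr10:87858265-87937042, plus strand), which encodes IGF-I, was between 441 and 666 CPM in all 20 livers, with overlap between all groups. Igfals (ENSMUSG00000046070, chr17:24865997-24882010, plus strand) encodes the acid-labile subunit, which holds IGF-I and its binding protein in a large circulating complex. Its levels were 73.9, 68.5, 125, 61.5 and 71.7 CPM in control and 57.6, 48.6, 49.7, 19.4 and 41.1 CPM with the combined exposure. All 5 combined values were below all controls. With Aroclor they were 54.8, 57.1, 59.8, 70.2 and 48.1 CPM, and with PCB 126 they were 61.2, 62.9, 105, 80.1 and 72.6 CPM, both overlapping control.

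Igfbp2 (ENSMUSG00000039323, chr1:72824503-72852474, plus strand) encodes an IGF binding protein made by hepatocytes. Control livers had 265, 312, 385, 573 and 464 CPM, and Aroclor livers had 204, 307, 116, 229 and 212 CPM. PCB 126 livers spread from 114 through 278, 387 and 624 to 693 CPM. Combined livers had 139, 173, 162, 85.6 and 154 CPM, each below the lowest control. The combined livers thus formed a narrow low set that the Aroclor livers overlapped, and the PCB 126 livers spread most widely.

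Igfbp1 (ENSMUSG00000020429, chr11:7197782-7202546, plus strand), a binding protein whose gene responds to fasting and insulin, ranged from 36.7 to 768 CPM. The highest liver was control replicate 5, and the lowest was combined replicate 3. The groups overlapped throughout.

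Bcl6 (ENSMUSG00000022508, chr16:23965052-23988852, minus strand) encodes a repressor that binds many of the DNA sites STAT5 uses. Control livers had 13.4, 20.9, 22.4, 12.0 and 12.0 CPM. Aroclor livers had 60.0, 44.0, 21.03, 81.3 and 63.6 CPM, and combined livers had 65.0, 40.2, 65.5, 47.5 and 10.04 CPM. Thus 4 of the 5 livers in each of these groups were above every control, and the remaining liver was inside the control range or below it. With PCB 126 the levels were 6.41, 8.02, 16.4, 17.9 and 69.7 CPM, where replicate 5 alone was above control. The exons of Bcl6 share 21 bases, 0.313% of their length, with Gm37419 on the opposite strand.

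**Figure D1:**
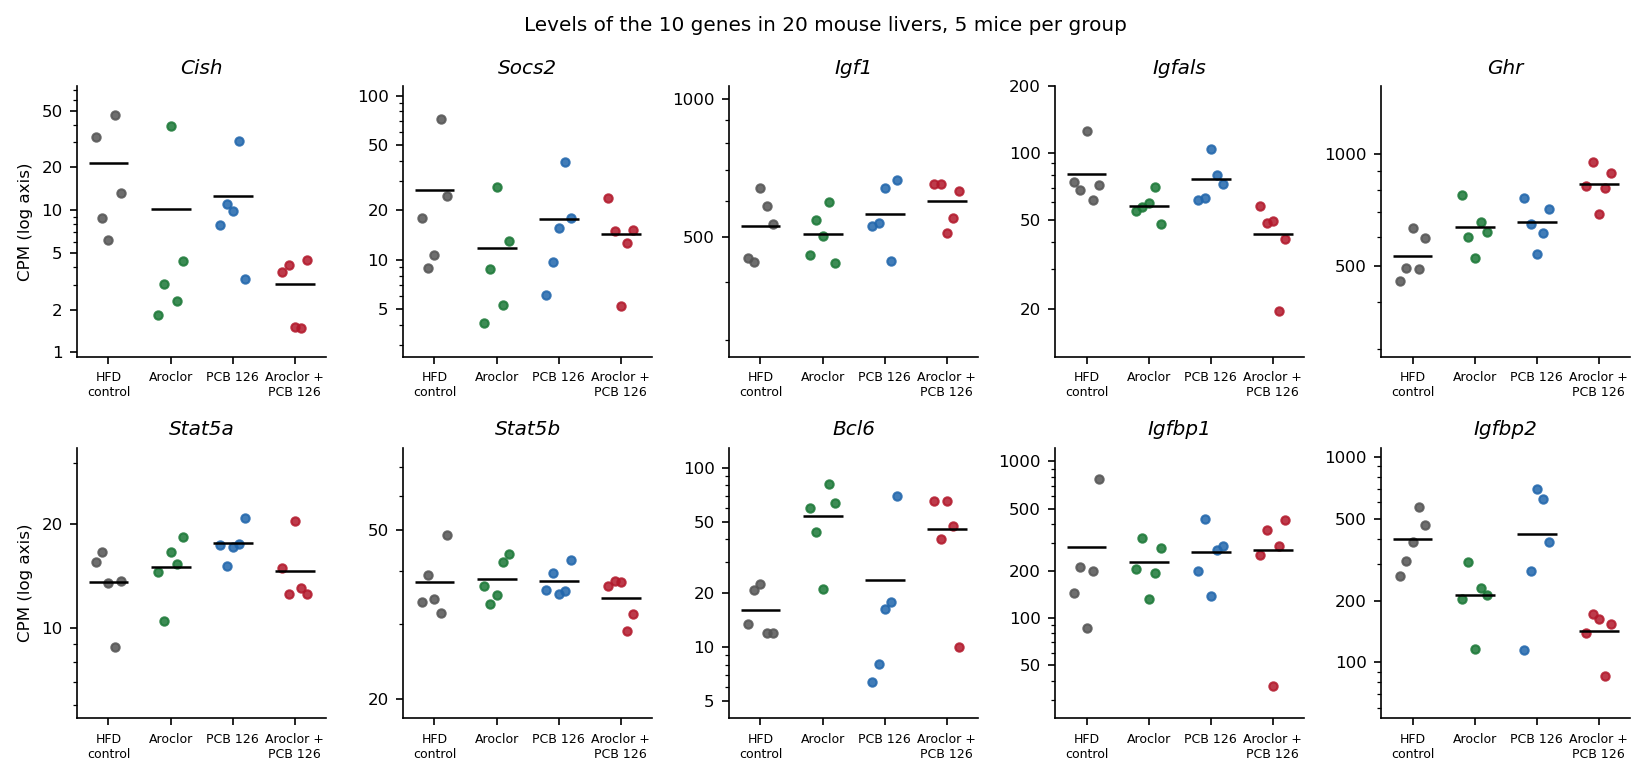
Level of each of the 10 genes in CPM on a log axis, 1 point per mouse and 5 mice per group, with the group mean as a line. Cish, Igfals and Igfbp2 of the combined group lie below all controls and Ghr above them, while 1 mouse stands apart for Cish in Aroclor (39.1 CPM) and for Bcl6 in PCB 126 (69.7 CPM).

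The single exposures were compared with HFD control to ask whether either alone moved the axis. With Aroclor none of the 10 genes passed an adjusted p of 0.05 in edgeR's quasi-likelihood test, and neither did any of the 15522 genes (0%). Without adjustment 2677 genes had a p under 0.05, Bcl6 and Igfbp2 among them, and DESeq2 called 135 genes but none of the 10. Bcl6 had a log2FC of 1.74 (SE 0.549, adjusted p = 0.195) and Igfbp2 a log2FC of −0.90 (SE 0.351, adjusted p = 0.225). For Socs2 the log2FC was −1.18 (SE 0.593, adjusted p = 0.306), and for Cish it was −1.09 (SE 0.755, adjusted p = 0.444). Both inhibitors turned on single mice. Cish was at −2.90 without Aroclor replicate 3, with an adjusted p of 0.0954, and at −0.60 without control replicate 4. Socs2 was at −1.77 and −0.39 without the same livers. The signs of the inhibitors, of Bcl6 and of Igfbp2 with Aroclor were those of the combined group, but both comparisons use the same 5 control livers.

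With PCB 126, edgeR called 18 genes (0.116%) and none of the 10. The unadjusted p was under 0.05 for Ghr, with a log2FC of 0.30 (SE 0.123, adjusted p = 0.278), and for Stat5a, with a log2FC of 0.36 (SE 0.169, adjusted p = 0.327). Igfbp2 was at 0.070 (SE 0.348, adjusted p = 0.950), Cish at −0.78 (SE 0.752, adjusted p = 0.668) and Bcl6 at 0.55 (SE 0.540, adjusted p = 0.675). Without PCB 126 replicate 5 the Bcl6 value was −0.41. Leaving out 1 mouse took Cish from −1.42 (without PCB 126 replicate 4) to −0.29 (without control replicate 4), and Socs2, at −0.59 with all mice, to 0.20 without control replicate 4.

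PCB 126 was next compared directly with Aroclor, in livers outside the comparison around which the genes were chosen. The genes were still chosen with earlier results of these data known. Here 4 genes were called (0.0258%), none of the 10. Bcl6 had a log2FC of −1.19 (SE 0.540, adjusted p = 0.528), and Igfbp2 was at 0.97 (SE 0.351, adjusted p = 0.398). Both had an unadjusted p under 0.05. Cish was at 0.31 (SE 0.754, adjusted p = 0.929) and, without Aroclor replicate 3, at 2.12. With standard errors of this size, changes of the order of those seen with Aroclor in Cish and Socs2 could not be resolved with 5 mice per group, and a p above the threshold does not show that the groups were alike.

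In the combined exposure against control, 5089 of 15522 genes were called (32.8%), 15.8% higher and 17% lower. Without reference to any test, groups of 5 did not overlap for 8.14% of all genes in the lower direction and 10.6% in the higher one. Among the 10 genes, Cish, Igfbp2 and Igfals were lower and Ghr higher with no overlap, counts that the choice of genes had partly fixed. Cish was lowest, with a log2FC of −2.83 (SE 0.825), or 7.12-fold below control. Igfbp2 had a log2FC of −1.48 (SE 0.355), or 2.80-fold below, and Igfals one of −0.89 (SE 0.232), or 1.85-fold below. Ghr was 1.56-fold above control, a log2FC of 0.64 (SE 0.123). Bcl6 had the highest value, 1.496 (SE 0.547), and its groups overlapped through combined replicate 5. The values of Socs2 (−0.89, SE 0.591), Igf1 (0.18, SE 0.128), Stat5a (0.10, SE 0.169), Stat5b (−0.12, SE 0.116) and Igfbp1 (−0.044, SE 0.525) belonged to groups that overlapped. Socs2 was at −0.11 without control replicate 4. Of the genes downstream of STAT5, before GC correction, Cish and Igfals were below every control, Socs2 had a log2FC like that of Igfals with overlapping groups, and Igf1 was near its control level.

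Against the single exposures, which share the combined livers, Cish in the combined group had a log2FC of −1.74 (SE 0.807) from Aroclor and −2.05 (SE 0.812) from PCB 126, and Igfbp2 one of −0.58 (SE 0.349) and −1.55 (SE 0.356). Bcl6 was at −0.24 (SE 0.531) from Aroclor and 0.95 (SE 0.538) from PCB 126. Only Igfals, below PCB 126 by a log2FC of −0.82 (SE 0.232), had no overlap between groups in these comparisons, which 5.94% of all genes share in that direction. After GC correction this Igfals value was −0.33. Igfbp2 was then at −0.17 from Aroclor and −0.97 from PCB 126, Cish at −1.42 and −1.74, and Bcl6 at −0.21 and 0.95. Bcl6 and Igfbp2 of the combined group therefore lay nearer to Aroclor than to PCB 126, with no test made.

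**Figure D2:**
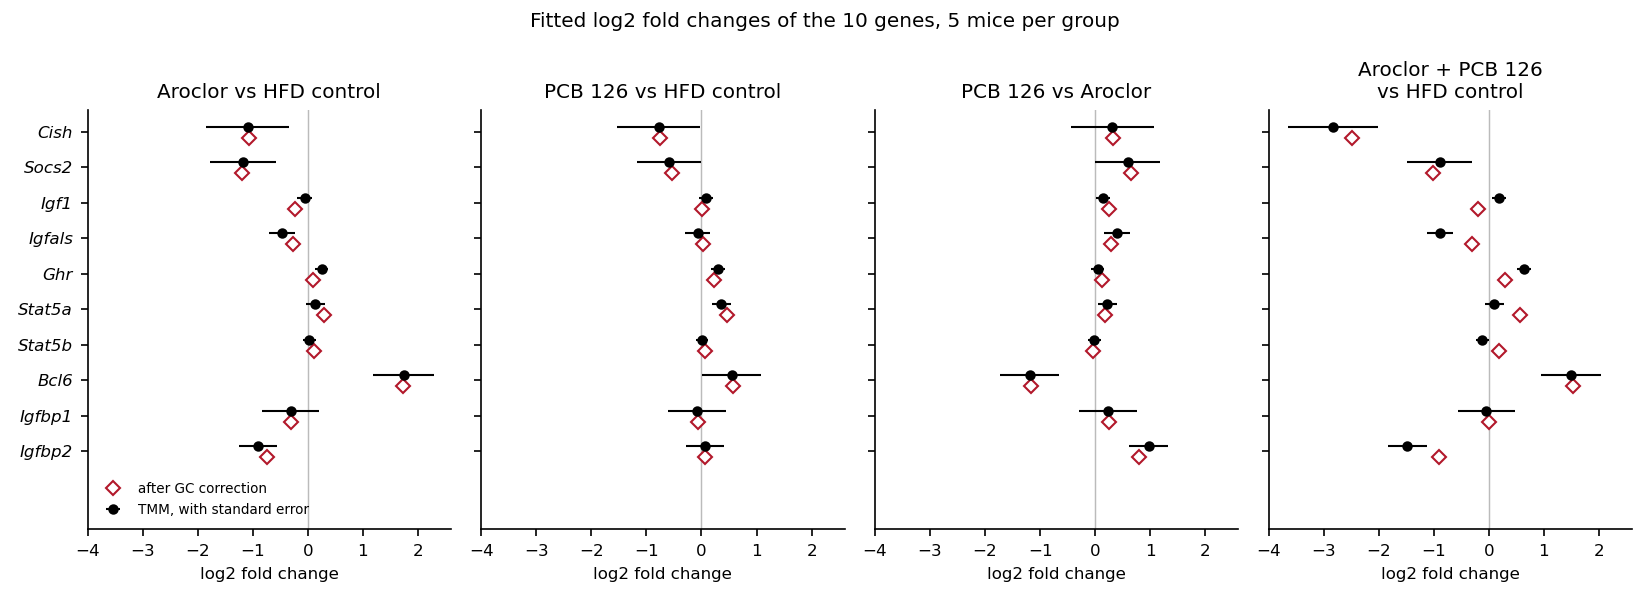
Fitted log2 fold changes of the 10 genes in 4 comparisons, with bars of 1 standard error for the TMM-scaled fit and open diamonds for the fit after GC correction. In the combined exposure Cish stays near −2.49 after correction and Bcl6 near 1.52, whereas Igfals goes from −0.89 to −0.30 and Igf1 changes sign.

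GC correction moved the genes of the axis by differing amounts. Igfals and Igfbp2, at 59.0% and 59.2% GC, are higher in GC than 94.0% and 94.3% of the table. Their combined log2FC went from −0.89 to −0.30 and from −1.48 to −0.91. Ghr and Igf1, at 44.7% and 43.6% GC, went from 0.64 to 0.30 and from 0.18 to −0.20. Cish at 55.1% and Bcl6 at 51.0% moved little for their size, from −2.83 to −2.49 and from 1.496 to 1.521. Stat5a, at 56.4% GC, went from 0.10 to 0.57. With each library's GC slope as a covariate instead, Cish was at −1.82, Bcl6 at 1.90, Igfbp2 at −0.89, Ghr at 0.21 and Igfals at −0.071, and Igfbp1, near 0 in the other fits, was at −1.82. Over all genes the correction took the share called from 32.8% to 9.14%. In this design the part of library composition in the combined values cannot be told apart from the exposure for any gene of the axis. That holds for Cish and Igfbp2 as it does for Igfals, Ghr and Igf1.

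**Figure D3:**
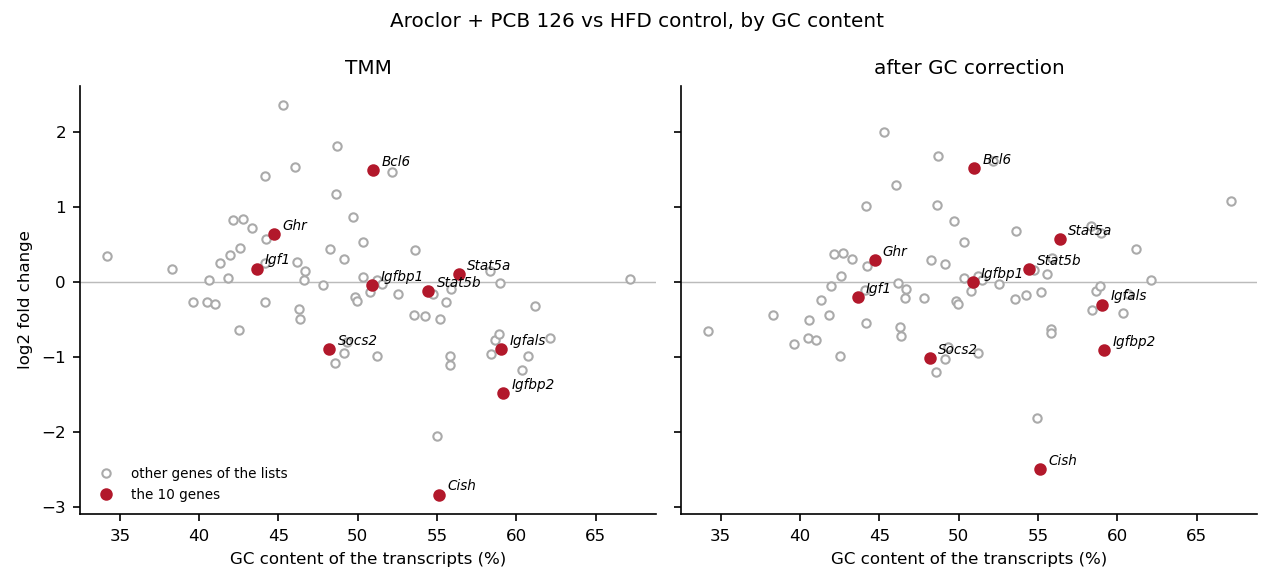
Log2 fold change of the combined exposure against HFD control over the GC content of each gene's transcripts, before and after GC correction, for the 10 genes (filled, named) and the other genes of the growth hormone and IGF lists (open). Before correction the genes near 45% GC lie mostly above 0 and those near 60% mostly below, and afterwards Cish at −2.49 and Bcl6 at 1.52 remain far from 0.

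The spread between mice of the same group divided the axis in another way. It was computed over all 20 libraries, those behind the choice of genes included, so it is not independent of that choice. Over 11342 genes with a mean of at least 1 CPM, the median within-group SD was 0.24 on the log2 scale. Cish had an SD of 1.28, more than 99.3% of these genes. Socs2 was at 1.03 (99.0%), Igfbp1 at 1.01 (98.9%), Bcl6 at 0.98 (98.8%) and Igfbp2 at 0.66 (96.9%). Igfals was at 0.41 (86.3%) and Stat5a at 0.29 (63.7%). Igf1 (0.20, 37.3%), Ghr (0.19, 32.2%) and Stat5b (0.18, 27.4%) were below the median of all genes. Thus the inhibitors, the repressor and both binding proteins differed widely between animals of 1 group, whereas the receptor, STAT5B and IGF-I did not.

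Within groups, Socs2 followed Cish. Over the 20 livers, as deviations of log2 CPM from the group mean, the correlation of Socs2 with Cish was r = 0.75 (Spearman rho 0.63), rank 14 of 11341 genes, and 0.64 without Aroclor replicate 3 and PCB 126 replicate 4, the livers farthest from the median of Cish. The mouse with the most Cish also had the most Socs2 in control (replicate 4), Aroclor (replicate 3) and PCB 126 (replicate 4). In the combined group the highest Cish was in replicate 5 and the highest Socs2 in replicate 1. Bcl6 went the opposite way, at r = −0.56 (rho −0.61) and −0.56 without those 2 livers, rank 11209. Aroclor replicate 3 and combined replicate 5, highest for Cish in their groups, were lowest for Bcl6, and PCB 126 replicate 5, lowest for Cish, was highest for Bcl6. Some mice did not follow this. PCB 126 replicate 4, highest for Cish in its group, deviated by 0.16 for Bcl6. PCB 126 replicate 1, lowest for Bcl6 in its group, deviated by −0.30 for Cish. Bcl6 and Socs2 were hardly related (r = −0.13). Ghr was at r = −0.49 with Cish, and Igf1 (−0.18), Igfals (−0.0042), Igfbp1 (0.065) and Igfbp2 (−0.016) were nearer 0. These values share 20 libraries, and after GC correction r was 0.76 for Socs2, −0.59 for Bcl6 and −0.48 for Ghr.

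**Figure D4:**
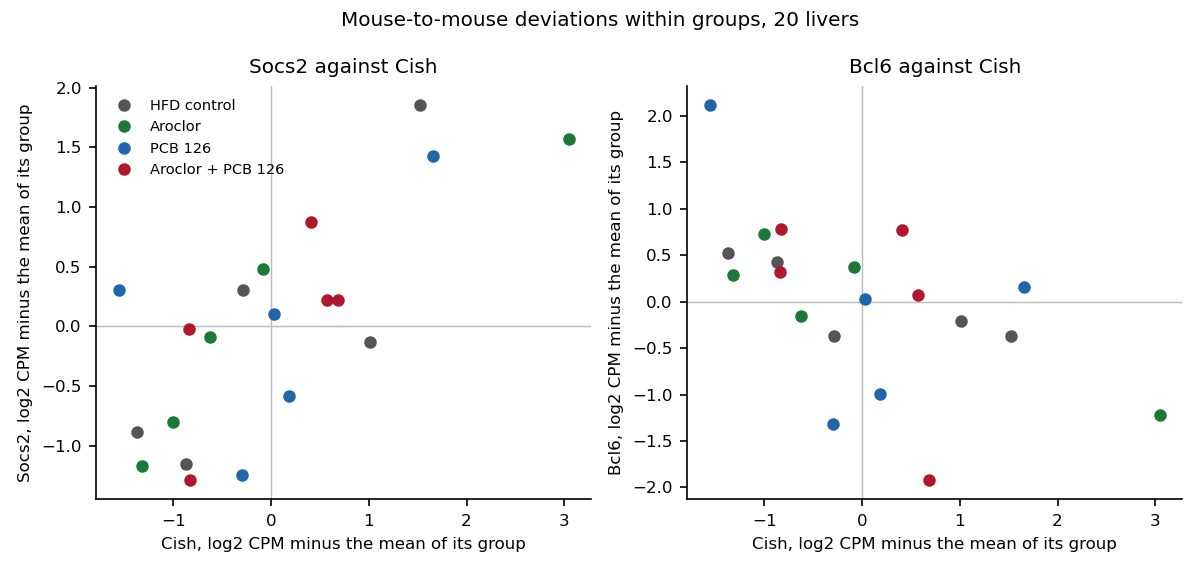
Deviation of Socs2 (left) and Bcl6 (right) from the group mean against that of Cish, in log2 CPM, 1 point per liver and 20 livers. Socs2 goes up with Cish (r = 0.75) and Bcl6 down (r = −0.56), with Aroclor replicate 3 at the far right of both panels.

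The genes most like Cish between mice of the same group were Phlda1 (r = 0.92), Rgs3 (0.90), Foxq1 (0.84), Foxa2 (0.83) and Id2 (0.82). Without the 2 farthest livers their r was 0.85, 0.88, 0.77, 0.69 and 0.70. After GC correction they were at 0.91, 0.89, 0.83, 0.81 and 0.81. Phlda1 encodes a small pleckstrin-homology protein, Rgs3 a regulator of G-protein signalling, and Id2 an inhibitor of basic helix-loop-helix factors. Foxq1 and Foxa2 encode forkhead transcription factors, and Foxa2 is also a member of a list of liver regulators described next.

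Other genes of the pathway were read from lists drawn up by function. None of the 15 signalling partners of the receptor, the 10 tested genes of the IGF system, the 14 male-biased genes, the 16 tested female-biased genes or the 10 regulators was called in Aroclor against control, PCB 126 against control or PCB 126 against Aroclor. In the unadjusted test, p was under 0.05 for 7 of the 14 male-biased genes with Aroclor, beside 2677 of all 15522 genes. All 14 had a negative log2FC there, from −1.76 to −0.22, with a median of −0.60 beside −0.013 over all genes, and −0.72 after GC correction. They share the same 5 control livers, which spread widely for some of them. Control levels ran from 22.9 to 415 CPM for Selenbp2, 57.7 to 753 for Egfr, 86.4 to 671 for Cyp7b1 and 41.0 to 239 for Hsd3b5. For Cyp2d9 they ran from 1047 to 1660 CPM. Whether single control livers set the signs was not tested. With PCB 126 the signs were mixed, 9 negative and 5 positive, with a median of −0.18. In PCB 126 against Aroclor, which uses the same Aroclor livers, 13 of the 14 had a positive log2FC (median 0.51). The male-biased genes include related genes, Cyp4a12a and Cyp4a12b, and Mup3, Mup20 and Mup21. How reads that match more than 1 gene were counted is not given in the sources used here. All 14 were measured in the same livers, so they are not separate pieces of evidence.

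In the combined exposure against control, where 32.8% of all genes were called, 3 of 14 male-biased genes were called, all lower. These were Selenbp2, a selenium-binding protein (log2FC −2.06, SE 0.688, adjusted p = 0.0268), Gstp1, a glutathione transferase (−0.98, SE 0.300, adjusted p = 0.0162), and Elovl3, a fatty acid elongase (−0.80, SE 0.212, adjusted p = 0.00743), by edgeR. After GC correction Elovl3 (−0.86) and Mup21 (−0.83) were called, and the list's median went from −0.40 to −0.67. Of the 16 female-biased genes 5 were called, all higher. Acot3, an acyl-CoA thioesterase, had a log2FC of 1.47 (SE 0.530, adjusted p = 0.0386), and Fmo2, a flavin monooxygenase, 1.42 (SE 0.220, adjusted p = 0.000582). Prlr, the prolactin receptor (0.84, SE 0.258), and Cyp39a1, an oxysterol hydroxylase (0.72, SE 0.241), were called as well. After GC correction 1 of these, Fmo2, remained called, at 1.02. The median of the female-biased list was 0.54 before and 0.34 after correction. The percentages of these lists called, 21.4% (all lower) and 31.2% (all higher), were not above the 32.8% of all genes called in either direction. By direction, 17% of all genes were called lower and 15.8% higher before GC correction, so each list was then above the share of its own direction. After GC correction 2 of the 14 male-biased and 1 of the 16 female-biased genes were called, beside 9.14% of all genes in either direction. The lists were chosen with earlier results of these data known, and the differences from the shares of all genes were not tested.

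Of the 15 signalling partners 5 (33.3%) were called in that comparison, where 32.8% of all genes were, and none after GC correction. After that correction 9.14% of all genes were called. Jak2, the receptor's kinase, was at 0.57 (SE 0.148) and at 0.21 after correction. The adaptor Sh2b1 (−0.69) and the phosphatase Ptpn6 (−0.49) were lower, and after correction they were at −0.059 and −0.13. In the IGF system none of 10 tested genes was called by edgeR, and 1 had an unadjusted p under 0.05. After GC correction the binding proteins Igfbp3 (0.67) and Igfbp7 (0.66) were called. Before correction the mean of Igfbp7 was 68.7 CPM with the combined exposure and 69.4 CPM in control. Igf2 and Pappa2 had too few counts to be tested. Among the 10 regulators 4 were called (40%). Prlr was higher and Foxa2 (−0.96, SE 0.314), Cebpa (−0.32, SE 0.0984) and Ezh1 (−0.26, SE 0.0836) were lower. After GC correction 3 were called by edgeR. Ezh1 was lower at −0.29, and both C/EBP factors were higher, Cebpb at 1.07 (adjusted p = 0.00408) and Cebpa at 0.44 (adjusted p = 0.016), which for Cebpa is the opposite direction. Their GC contents were 67.2% and 61.2%. Before correction the mean of Cebpb was 34.8 CPM with the combined exposure and 33.9 CPM in control. How far the correction itself made the rises of Igfbp7, Cebpb and Cebpa was not tested. Foxa2 was at −0.37 without a call.

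**Figure D5:**
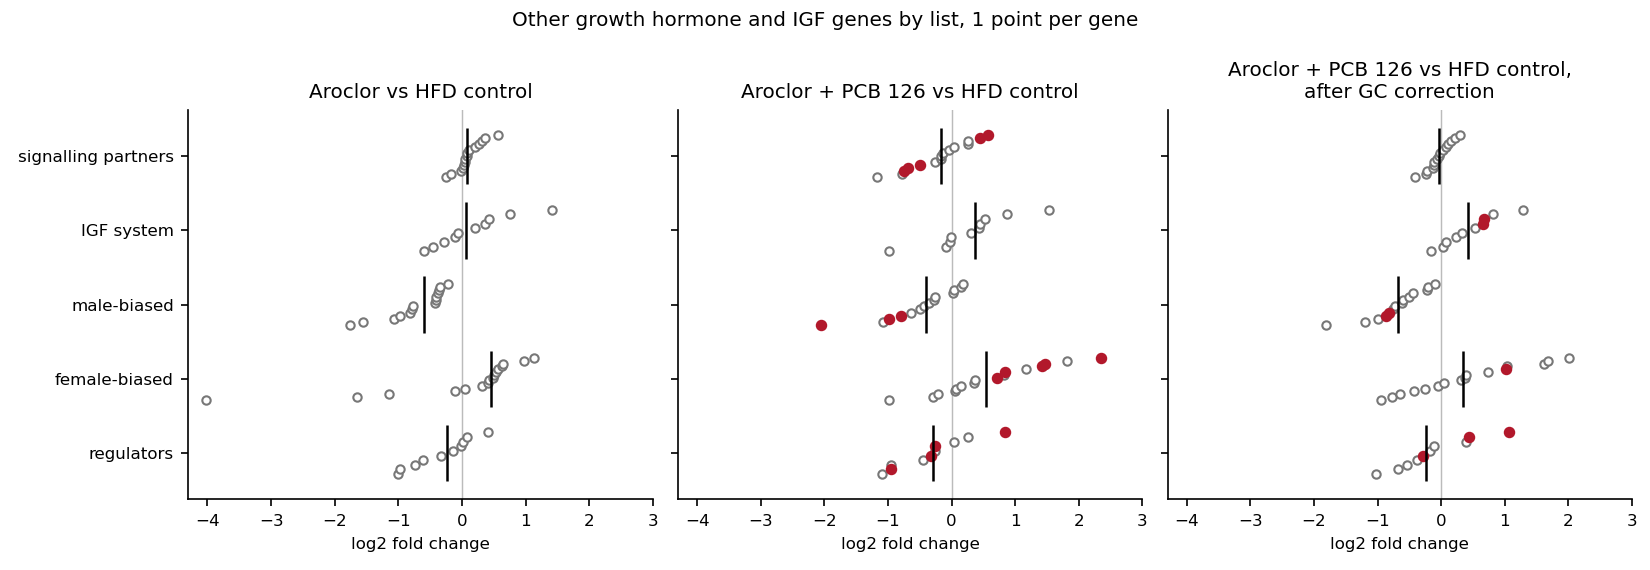
Log2 fold changes of the other growth hormone and IGF genes by list, 1 point per gene, with the list median as a bar and genes past an adjusted p of 0.05 filled. All 14 male-biased genes lie left of 0 with Aroclor although none is filled, and the filled points of the signalling partners with the combined exposure empty after GC correction.

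Markers of the liver's cell types were read beside these values. The summed level of 6 hepatocyte markers lay between 70091 and 101968 CPM in the 20 livers, with overlap between all groups. Alb, at a mean of 64725 CPM, was the largest part of the hepatocyte sum. Of the 6, 3 (Apoa1, Ttr and Serpina1c) were called lower in the combined group, 1 after GC correction. Of 6 stellate cell and fibroblast markers, 3 (Lrat, Dcn and Reln) were called higher in the combined group, none after GC correction. Pdgfrb (log2FC −0.37) and Col1a1 (−0.018) went the other way. Of all genes, 15.8% were called higher and 17% lower in that group. The sum of all 6 markers, before GC correction, was 307 to 358 CPM there, against 140 to 303 CPM in control and 264 to 373 CPM with Aroclor. Dcn, at a mean of 163 CPM over the 20 livers, was the largest part of this sum. At 40.1% GC, its combined log2FC went from 0.60 to 0.0012 after GC correction. Adgre1 of 6 macrophage markers was called higher and Stab2 of 5 endothelial markers lower in the combined group, and no cholangiocyte or lymphocyte marker was called. The log2FC there was negative for 3 of the macrophage markers and positive for 2 of the endothelial markers. The sums of macrophage, endothelial and cholangiocyte markers overlapped between combined and control livers, and the 5 lymphocyte markers summed to 1.18 to 5.81 CPM. No marker was at 0 in any library. The part of these cell types in the changes of the axis was not tested.

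To show what lies before these genes, the 250 bases upstream of each RefSeq start (GRCm38.p6) were searched for TTCNNNGAA, the letters that STAT5 prefers, which read the same on both strands. Entries matched 9 of the 10 genes, without Socs2, in 16 windows, since several genes have more than 1 start. The motif was in 4 of them, in Igfals and Bcl6 only, and in 7.02% of 32851 windows of all genes. More than 1 copy was found in a Bcl6 window with 3, as in 0.317% of all windows. The stretches outside annotated exons are shown for Bcl6, Igfals and Igfbp2 because these 3 stood among the larger differences of the combined group and hold 3, 1 and no copies. The Bcl6 stretch is chr16:23981284-23981533 (minus strand), inside the gene's annotated span and upstream of its inner start, with copies 168, 122 and 88 bases before that start. The Igfals stretch is chr17:24877981-24878214 (plus strand), also inside the span, with a copy 58 bases before the start. The Igfbp2 stretch is chr1:72824230-72824479 (plus strand), before the gene. Capitals mark the motif.
Bcl6: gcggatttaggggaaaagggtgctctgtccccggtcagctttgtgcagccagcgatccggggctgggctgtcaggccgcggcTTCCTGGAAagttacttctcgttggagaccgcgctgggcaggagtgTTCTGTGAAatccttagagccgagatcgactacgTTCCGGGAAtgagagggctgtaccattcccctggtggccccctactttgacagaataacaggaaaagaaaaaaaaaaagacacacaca
Igfals: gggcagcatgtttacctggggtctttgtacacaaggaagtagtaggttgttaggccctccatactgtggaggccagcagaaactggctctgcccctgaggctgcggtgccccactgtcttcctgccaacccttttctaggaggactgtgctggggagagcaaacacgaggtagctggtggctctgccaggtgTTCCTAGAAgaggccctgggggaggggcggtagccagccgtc
Igfbp2: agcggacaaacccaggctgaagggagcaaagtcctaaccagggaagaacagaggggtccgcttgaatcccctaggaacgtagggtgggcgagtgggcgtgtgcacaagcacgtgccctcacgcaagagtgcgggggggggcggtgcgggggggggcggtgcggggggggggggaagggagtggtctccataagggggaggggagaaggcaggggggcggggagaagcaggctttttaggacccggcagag
A match is a run of letters and not a measured binding site, and the windows of Cish and Igf1 lie within annotated exons and are not shown.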

How the data were processed

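RNA-seq of 20 mouse livers was analysed, 5 per group, with each group taken from the sample labels. The label of PCB 126 replicate 2 carries another number in a bracket, and its title was followed. The authors made stranded poly(A) libraries and ran them on the sequencer in 2 runs. STAR 2.6 aligned the reads (GRCm38.p6) and HTSeq 0.10.0 did the counting, with versions from the submitters' processing notes. The deposited values are raw counts with no normalization. A run is not assigned to each library in the sources used here, so its effect could not be separated.

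The members and lists were chosen with earlier results of these data known. Genes with at least 10 counts in total (15522) were scaled by TMM. The model, in edgeR 4.0.16 (R 4.3.3), had 4 groups and 16 residual degrees of freedom. The two-sided quasi-likelihood test was adjusted by Benjamini-Hochberg over all tested genes, with a threshold of 0.05. The mice were randomized to groups of 10, of which 5 livers per group were sequenced, so p-values measure the spread between these mice. How the 5 were picked is not given in the sources used here. FPKM were computed from CPM and the summed exon length of GENCODE M21. GC correction entered, as an offset, a spline (6 degrees of freedom) of each library's log2 CPM deviations over the GC content of transcripts, known for 15516 of the tested genes. Deviations for correlations used log2 CPM with a prior count of 2. The named genes are the 10 members, the 5 genes most like Cish (mean 1 CPM or more), and up to 4 called genes per list, by size of change, with that mean. Genes called only after GC correction were added after their values were seen. Some called genes of the lists are counted but not reported here by name.

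Alternatives were RLE or upper-quartile scaling, the Wald test of DESeq2 1.42.0, no filter, filterByExpr, an FPKM filter, only the groups compared, the replicate number as a block, GC correction alone, with length or with the block, each library's GC slope as a covariate, and the removal of each mouse in turn. For correlations, GC correction and leaving out the 2 farthest livers were chosen after seeing the data. Within groups no liver was a repeat of another. Over the 40 such pairs, chi-square divided by its degrees of freedom was at least 18.7. Tested on simulated data for PCB 126 against control, the edgeR fit recovered 84% of 200 genes changed by a log2FC of 1, with 4 false calls among 15397 genes. The simulated libraries had no differences in GC slope, and the changed genes were drawn at random among those with a mean of at least 1 CPM. These rates therefore do not carry over to the real libraries or to genes of wide spread such as Cish, Socs2, Igfbp1 and Bcl6.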

Additional observations from a re-analysis of the deposited data

Results flagged for a closer look

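In groups of 5, a mouse was singled out when its gap to the nearest other mouse exceeded 0.71 of the group's range (Dixon's 95% value). For normally distributed and independent values about 2 of the 40 groups examined would be flagged, and 6 were. The rule was applied to CPM without logs and to genes measured in the same mice. The number 2 is therefore no measure of chance here. Cish was 39.1 CPM in Aroclor replicate 3, while the other 4 Aroclor mice had 1.83 to 4.40 CPM. Cish was 30.9 CPM in PCB 126 replicate 4, while the others had 3.27 to 11.1 CPM. Socs2 was 71.5 CPM in HFD control replicate 4, with the others at 8.84 to 24.4 CPM. Igfals was 125 CPM in HFD control replicate 3, with the others at 61.5 to 73.9 CPM. Bcl6 was 69.7 CPM in PCB 126 replicate 5, with the others at 6.41 to 17.9 CPM. Igfbp1 was 768 CPM in HFD control replicate 5, with the others at 86.4 to 213 CPM. All 6 were the highest of their group.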

How the results depend on the processing

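None of the 10 genes was called in Aroclor against control, PCB 126 against control or PCB 126 against Aroclor under any alternative or with any mouse left out, the smallest adjusted p being 0.0594 (PCB 126 against Aroclor, leaving out a mouse). Numbers of genes called over the whole table moved more. In Aroclor against control (0 genes), DESeq2 called 135, the replicate block 26, GC correction with the block 21 and the GC slope covariate 484. In PCB 126 against control (18), the numbers were 9 with upper-quartile scaling, 320 with DESeq2, 68 with filterByExpr, 47 with the FPKM filter, 4 with only these groups, 101 with the block, 50 with GC correction, 83 with GC and length, 116 with GC and the block, and 760 with the covariate. In PCB 126 against Aroclor (4), DESeq2 called 67, the fit of only these groups 2 and the covariate 12. In the combined exposure against control (5089), GC correction left 1419, GC and length 1474, GC and the block 1466 and the covariate 523. Against Aroclor (64), the numbers were 107 with RLE, 251 with upper-quartile, 1343 with DESeq2, 13 with no filter, 292 with filterByExpr, 636 with the FPKM filter, 0 with only these groups, 475 with the block, 5 with GC correction, 14 with GC and length and 2 with the covariate. Against PCB 126 (2589), they were 0 with GC correction, 64 with GC and length, 203 with GC and the block and 0 with the covariate. Leaving out a mouse gave 0 to 0, 4 to 131, 1 to 15, 3887 to 5665, 0 to 1011 and 245 to 3403 genes in these 6 comparisons. In PCB 126 against control the highest came without PCB 126 replicate 3 and the lowest without PCB 126 replicate 2. The causes were not tested.

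The replicate numbers were not treated as pairs, since the mice were randomized to groups and the labels name no pairing. Of 30 pairs of same-numbered mice, 13 deviated together with r over 0.1 (−0.26 to 0.74). A library correlated best with its own number in another group in 17 of 60 checks. These values do not decide whether the numbers mark pairs. Directions turned in small values. With Aroclor, Stat5b was −0.015 with upper-quartile scaling. With PCB 126, Igf1 was −0.0020 with GC and length, Igfals was 0.026, 0.020, 0.047 and 0.084 with GC correction, GC and length, GC and the block, and the covariate, Stat5b was −0.027 with upper-quartile scaling and −0.0098 with the FPKM filter, and Igfbp1 was 0.19 with the block and 0.21 with GC and the block. In PCB 126 against Aroclor, Stat5b was 0.0029 with RLE and with DESeq2 and 0.0059 with no filter. With the combined exposure, GC correction, GC and length, and GC and the block gave −0.20, −0.27 and −0.19 for Igf1 and 0.18, 0.14 and 0.19 for Stat5b, and Igfbp1 was 0.029 with the block, 0.088 with GC and length and 0.063 with GC and the block. Leaving out a mouse turned these ranges through 0. With Aroclor they were −0.15 to 0.012 (Igf1), −0.028 to 0.14 (Stat5b) and −0.55 to 0.49 (Igfbp1). With PCB 126 they were −1.10 to 0.20 (Socs2), −0.22 to 0.17 (Igfals), −0.041 to 0.12 (Stat5b), −0.41 to 0.79 (Bcl6), −0.33 to 0.72 (Igfbp1) and −0.18 to 0.31 (Igfbp2). In PCB 126 against Aroclor they were −0.33 to 2.12 (Cish), −0.015 to 0.13 (Ghr), −0.059 to 0.047 (Stat5b) and −0.017 to 0.41 (Igfbp1). In the combined exposure they were −0.045 to 0.17 (Stat5a) and −0.27 to 0.76 (Igfbp1). The number of mice per group limits the precision for the genes of widest spread.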
